A study of Homo sapiens with 12 samples.

Results

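The enzymes that turn squalene into cholesterol were followed in the RNA of T47D cells through 8 of their genes, SQLE, LSS, CYP51A1, TM7SF2, NSDHL, HSD17B7, EBP and DHCR7. They were picked by symbol from the 25370 genes of the count table, and all 8 were found and tested. T47D is an estrogen receptor-positive line from a human breast carcinoma. RNA-seq compared 4 groups of 3 libraries each, lettered a, b and c: vehicle, anastrozole at 10 nM, estradiol (E2) at 0.1 nM, and anastrozole at 10 nM together with E2 at 0.1 nM. Anastrozole blocks aromatase, which turns androgens into estrogens. In all 4 groups the cells had been kept for 48 hours in medium with 5% charcoal-stripped serum and then for 24 hours without serum. The labels give 12 hours of treatment and the study's methods 24 hours. Each library held between 9914253 (anastrozole b) and 17009776 (E2 b) reads on genes, and levels are given as CPM, the counts scaled to library size, after TMM normalization. The labels do not say whether the letters stand for separate cultures, so p-values measure the spread between these libraries, which may be technical.

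Cholesterol is built in the endoplasmic reticulum from acetyl-CoA through mevalonate to squalene, and the second stretch of the route begins when squalene epoxidase (SQLE) oxidises squalene and lanosterol synthase (LSS) folds the product into the first sterol. The remaining enzymes strip methyl groups from lanosterol and move or reduce double bonds until cholesterol is reached. Most genes of the route are switched on together by the sterol-sensing transcription factor SREBP-2, and estrogen receptor-positive breast cancer cells both make cholesterol and use it as the parent molecule of steroids and oxysterols.

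Libraries differed in how their counts followed base composition, and this bears on every value below. Over 10847 genes averaging 3 log2 CPM or more, Spearman's rho between a gene's deviation from its mean over the 12 libraries and the GC content of its exons was 0.46, 0.06 and 0.44 in vehicle a, b and c, -0.61, -0.37 and 0.26 with anastrozole, -0.42, -0.32 and -0.50 with E2, and 0.43, 0.34 and 0.36 with the combination. Anastrozole c thus stood apart from anastrozole a and b, and the E2 libraries lay on the other side of 0 from vehicle and from the combination. The exons of the 8 genes ranged from 40.9% GC in CYP51A1 and HSD17B7 to 62.7% in TM7SF2. Fold changes were therefore also computed with the dependence on GC content taken out of each library (called removal of the GC trend below), and for the 8 enzymes those values stand beside the others wherever a call changed.

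The label of the cells was checked against marker genes. All 9 luminal epithelial markers (ESR1, PGR, GATA3, FOXA1, KRT8, KRT18, KRT19, EPCAM and CDH1) were above 0 in every library, with a summed level between 10134 CPM in anastrozole a and 11188 CPM in vehicle c and KRT19 as the most abundant. With E2, 5 of the 9 were called lower by edgeR (ESR1 -0.14, FOXA1 -0.14, KRT8 -0.10, KRT19 -0.16 and CDH1 -0.08), beside 5.95% of all genes and 12.4% of those of at least 4 log2 CPM. Of these 5, ESR1, FOXA1 and CDH1 were called with the GC trend removed. With anastrozole PGR alone was called lower (-0.13), beside 2.27% of all genes. GATA3 was called higher with anastrozole once the GC trend was removed (0.11, adjusted p = 0.01). The 10 markers of other cells summed to between 86.6 and 107.1 CPM, nearly all of it from the collagen gene COL1A1 (80.0 to 99.9 CPM), while the leukocyte marker PTPRC was at 0 in 11 of 12 libraries and the endothelial marker PECAM1 at 0 in 10. The macrophage-associated gene CD68 was the 1 marker of that list that rose with anastrozole and with E2 (log2 fold change 0.71 and 0.55). With the combination CD68 stood at 0.50 (adjusted p = 0.059 by edgeR), which passed with the GC trend removed (0.50, adjusted p = 0.046). Its part in the results below was not tested. In bulk RNA, fewer cells with a transcript and less transcript per cell cannot be told apart.

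LSS, TM7SF2 and DHCR7 fell against vehicle with each of the 3 treatments, so the 250 bases before their start sites are shown. With the GC trend removed LSS alone kept all 3 calls, since TM7SF2 was not called with anastrozole (-0.08, adjusted p = 0.20) or DHCR7 with E2 (-0.07, adjusted p = 0.12). The sequences come from the RefSeq promoter table on GRCh38.p14, which held entries for 7 of the 8 genes and none for SQLE. Capitals mark CCAAT (or ATTGG on the other strand), which is the letter string bound by NF-Y, and GGGCGG (or CCGCCC), the GC box bound by Sp1.

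LSS, chr21:46228775-46229024, minus strand: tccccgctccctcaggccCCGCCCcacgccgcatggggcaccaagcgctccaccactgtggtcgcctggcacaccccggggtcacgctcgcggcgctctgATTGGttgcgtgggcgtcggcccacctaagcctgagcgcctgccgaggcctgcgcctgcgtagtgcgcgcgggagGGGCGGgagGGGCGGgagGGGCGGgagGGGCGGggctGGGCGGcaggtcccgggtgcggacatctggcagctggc
TM7SF2, chr11:65111622-65111871, plus strand: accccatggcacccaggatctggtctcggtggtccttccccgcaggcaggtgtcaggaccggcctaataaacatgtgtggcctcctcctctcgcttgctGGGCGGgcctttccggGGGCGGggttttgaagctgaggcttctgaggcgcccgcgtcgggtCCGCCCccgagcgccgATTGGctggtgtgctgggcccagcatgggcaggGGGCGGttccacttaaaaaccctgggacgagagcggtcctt
DHCR7, chr11:71448394-71448643, minus strand: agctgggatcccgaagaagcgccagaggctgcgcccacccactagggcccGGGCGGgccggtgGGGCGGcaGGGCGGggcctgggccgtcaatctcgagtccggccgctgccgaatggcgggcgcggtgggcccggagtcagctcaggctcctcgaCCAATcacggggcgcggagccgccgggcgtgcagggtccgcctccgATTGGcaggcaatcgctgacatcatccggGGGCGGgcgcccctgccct

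In the first listed entry of each gene, CCAAT was present in LSS, TM7SF2, NSDHL, HSD17B7, EBP and DHCR7, against 32.0% of 35116 promoter windows of that length in the table. NSDHL held 5 copies, EBP 3 and DHCR7 2, whereas CYP51A1 had none in this window. The GC box was present in LSS (6 copies), TM7SF2 and DHCR7 (4 copies each), CYP51A1, HSD17B7 and EBP (1 copy each), against 42.6% of all windows. The shares of all windows count presence, not copies, and are not matched for GC content. The printed windows of LSS, TM7SF2 and DHCR7 are 76.8%, 66.4% and 75.2% GC. Any link between motif copies and the falls was not tested. A sterol regulatory element core written as TCACNCCAC occurred in 0.883% of windows and in none of the 7, and the paired half-sites GGTCA and TGACC with 3 bases between them, an estrogen response element, occurred in 0.0399% and likewise in none of the 7. Both strands were searched. DHCR7 has a second listed start, whose window held none of the 4 motifs.

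SQLE, on chromosome 8 (126010739 to 126034525, GRCh37), encodes squalene epoxidase, a slow step of the route. Its level was 257.9, 268.8 and 257.1 CPM in vehicle a, b and c, 225.8, 232.6 and 230.1 CPM under anastrozole, 268.5, 266.6 and 256.9 CPM with E2, and 227.1, 241.8 and 233.3 CPM with the combination. Every library given anastrozole, alone or with E2, lay below every library that had none, and the vehicle and E2 libraries overlapped. SQLE fell by 12.2% with anastrozole (log2 fold change -0.19, SE 0.05, adjusted p = 0.0033 by the edgeR quasi-likelihood test after adjustment by Benjamini-Hochberg, which gives all adjusted p-values here unless another tool is named) and by 10.4% with the combination (-0.16, SE 0.04, adjusted p = 7.8e-04). With E2 alone the difference was 0.01 (95% interval -0.05 to 0.08). SQLE was also the 1 member that fell with anastrozole compared directly with E2 (-0.20, SE 0.04, adjusted p = 2.9e-04), and it fell with the combination against E2 (-0.17, SE 0.03, adjusted p = 1.9e-05). Between the combination and anastrozole the difference was 0.03 (95% interval -0.06 to 0.11), and the interaction of both agents was 0.01 (95% interval -0.09 to 0.12). Both falls against vehicle were lost with limma-voom (adjusted p = 0.084 for anastrozole and 0.061 for the combination), and both falls against E2 were called in all 9 alternative fits. The fall with the combination against E2 was -0.12 with the GC trend removed (adjusted p = 0.03).

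LSS, on chromosome 21 (47608055 to 47648738), closes the sterol ring system. Vehicle libraries stood at 287.9, 283.8 and 291.2 CPM, anastrozole libraries at 218.1, 217.8 and 241.4 CPM, E2 libraries at 248.4, 243.8 and 248.0 CPM, and combination libraries at 243.7, 238.4 and 232.1 CPM. The 3 vehicle libraries were the highest of the 12, and anastrozole c lay among the combination libraries, apart from anastrozole a and b. LSS fell by 21.5% with anastrozole (-0.35, SE 0.05, adjusted p = 1.2e-11), by 14.2% with E2 (-0.22, SE 0.03, adjusted p = 9.7e-09) and by 17.2% with the combination (-0.27, SE 0.04, adjusted p = 2.6e-11). These became -0.28, -0.15 and -0.27 with the GC trend removed, all called. Its interaction was positive (0.30, SE 0.05, adjusted p = 7.4e-06), meaning that the fall with both agents was smaller than the sum of the separate falls, and it stayed past the threshold with the GC trend removed (0.17, adjusted p = 0.019). Compared directly, anastrozole and E2 differed by -0.12 (95% interval -0.20 to -0.04, adjusted p = 0.12), the combination and E2 by -0.05 (95% interval -0.11 to 0.01), and the combination and anastrozole by 0.07 (95% interval -0.01 to 0.16). The first became a call with the GC trend removed (-0.13, adjusted p = 0.0043) or without anastrozole c (-0.17, adjusted p = 4.5e-04), the second with the GC trend removed (-0.12, adjusted p = 0.027), and the third without anastrozole c (0.13, adjusted p = 0.025). Annotated exons of 2 long noncoding genes on the opposite strand cover 6.19% and 1.69% of its exonic bases, and the strand setting of the counting is not given in the sources used here.

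CYP51A1, on chromosome 7 (91714301 to 91764117), is the cytochrome P450 that removes the first methyl group from lanosterol. It was counted at 185.1, 189.3 and 185.7 CPM in vehicle, 173.6, 178.4 and 163.2 CPM under anastrozole, 187.8, 186.9 and 188.6 CPM with E2, and 171.5, 169.3 and 178.9 CPM with the combination. As for SQLE, the 6 libraries with anastrozole all lay below the 6 without it. The distances were small, however, and against vehicle neither anastrozole (-0.12, 95% interval -0.21 to -0.03, adjusted p = 0.14) nor the combination (-0.11, 95% interval -0.18 to -0.03, adjusted p = 0.079) passed the threshold, while E2 gave 0.01 (95% interval -0.06 to 0.08). Removing the GC trend brought both under it (-0.17, adjusted p = 3.5e-04, and -0.11, adjusted p = 0.034). A replicate block by letter brought the combination value under it as well (-0.11, adjusted p = 0.016), but not the anastrozole value (adjusted p = 0.15). CYP51A1 fell with the combination against E2 (-0.12, SE 0.03, adjusted p = 0.015), a call that was lost with the GC trend removed (-0.05, adjusted p = 0.74), with limma-voom or all 12 libraries in the fit (adjusted p = 0.071 in each), and without E2 a (-0.12, adjusted p = 0.052), E2 c (-0.11, adjusted p = 0.067) or combination b (-0.10, adjusted p = 0.13). Anastrozole against E2 gave -0.12 (95% interval -0.21 to -0.04, adjusted p = 0.14), called with the GC trend removed (-0.11, adjusted p = 0.049), and the combination against anastrozole gave 0.01 (95% interval -0.08 to 0.10). Exons annotated to 2 other genes on the same strand cover 68.2% and 67.8% of its exonic bases, so the count depends on whether the annotation used for counting held them.

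TM7SF2, on chromosome 11 (64879317 to 64883856), encodes a reductase of the sterol D ring, a step that LBR can also carry out. Its values were 270.6, 260.0 and 269.1 CPM in vehicle, 213.9, 232.3 and 247.9 CPM under anastrozole, 213.4, 222.2 and 215.0 CPM with E2, and 224.1, 222.9 and 227.9 CPM with the combination. The vehicle libraries were again above the rest, and the anastrozole libraries were spread over the widest range of any treated group. TM7SF2 fell most with E2 (by 18.6%, -0.30, SE 0.03, adjusted p = 4.6e-15), and it fell by 15.6% with the combination (-0.24, SE 0.04, adjusted p = 7.0e-09) and by 13.3% with anastrozole (-0.21, SE 0.05, adjusted p = 8.6e-04). With the GC trend removed the falls with E2 and with the combination were -0.17 and -0.23, both called, and the anastrozole value was -0.08 (adjusted p = 0.20), which did not pass. The anastrozole call was also lost without anastrozole a (-0.15, adjusted p = 0.11) and with limma-voom (adjusted p = 0.15). Its interaction of 0.26 (SE 0.06, adjusted p = 1.8e-04) was 0.02 (adjusted p = 0.97) with the GC trend removed. Direct differences were 0.10 for anastrozole against E2 (95% interval 0.02 to 0.18, adjusted p = 0.34), 0.05 for the combination against E2 (95% interval -0.01 to 0.12) and -0.04 for the combination against anastrozole (95% interval -0.13 to 0.04). The last was -0.15 (adjusted p = 0.0023) with the GC trend removed, and the first was 0.15 (adjusted p = 0.034) without anastrozole a.

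NSDHL, on chromosome X (151999511 to 152038273), and HSD17B7, on chromosome 1 (162760492 to 162782613), act in turn in the removal of methyl groups from the sterol A ring, as decarboxylating dehydrogenase and as ketoreductase. NSDHL was at 32.4, 33.1 and 32.3 CPM in vehicle, 27.4, 28.1 and 27.3 CPM under anastrozole, 28.9, 29.1 and 29.0 CPM with E2, and 29.6, 28.8 and 29.2 CPM with the combination. Its 3 vehicle libraries were above all 9 others and its 3 anastrozole libraries below them, with a tight spread inside each group. HSD17B7 was at 36.3, 30.9 and 33.8 CPM in vehicle, 31.9, 26.3 and 24.9 CPM under anastrozole, 30.4, 33.6 and 33.3 CPM with E2, and 30.5, 31.2 and 30.8 CPM with the combination. Here the groups overlapped, since anastrozole a was above vehicle b. Both genes rest on few reads, between 278 and 492 for NSDHL and between 260 and 569 for HSD17B7 in a library. HSD17B7 fell with anastrozole (by 17.3%, -0.27, SE 0.08, adjusted p = 0.031), whereas NSDHL, with a difference of -0.24 (95% interval -0.40 to -0.08), missed the threshold (adjusted p = 0.074) and passed it with all 12 libraries in the fit (adjusted p = 0.042). The HSD17B7 call was lost without vehicle a (-0.22, adjusted p = 0.30), vehicle c (-0.27, adjusted p = 0.18), anastrozole b (-0.24, adjusted p = 0.21) or anastrozole c (-0.20, adjusted p = 0.15), and with edgeR's filterByExpr (adjusted p = 0.082) or limma-voom (adjusted p = 0.26), and DESeq2 gave it no adjusted p.

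Neither gene was called in the other comparisons. For NSDHL the differences were -0.17 with E2 (95% interval -0.30 to -0.03) and -0.16 with the combination (95% interval -0.30 to -0.02), and for HSD17B7 they were -0.05 (95% interval -0.18 to 0.08) and -0.13 (95% interval -0.26 to 0.01). Against E2, anastrozole differed by -0.07 for NSDHL (95% interval -0.23 to 0.09) and by -0.22 for HSD17B7 (95% interval -0.37 to -0.06, adjusted p = 0.23). Without anastrozole a, the latter was -0.35 (adjusted p = 0.0096). The combination differed from anastrozole by 0.08 for NSDHL (95% interval -0.07 to 0.23) and by 0.14 for HSD17B7 (95% interval -0.01 to 0.29), and from E2 by 0.01 (95% interval -0.13 to 0.15) and -0.08 (95% interval -0.21 to 0.06). The interaction was 0.25 for NSDHL (95% interval 0.04 to 0.46, adjusted p = 0.13) and 0.20 for HSD17B7 (95% interval -0.01 to 0.41, adjusted p = 0.27). The pseudogene HSD17B7P2 is counted separately and took between 27.1% and 32.9% of the reads given to either gene, so reads that belong to one may have been assigned to the other.

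EBP, on chromosome X (48380187 to 48387104), is the isomerase that shifts a double bond within the sterol B ring. The libraries gave 131.6, 120.1 and 125.9 CPM in vehicle, 111.1, 108.6 and 112.2 CPM under anastrozole, 122.1, 120.2 and 123.5 CPM with E2, and 126.4, 113.2 and 116.2 CPM with the combination. Anastrozole alone gave the lowest 3 of the 12 libraries, and the other 3 groups overlapped. EBP fell by 12.0% with anastrozole (-0.18, SE 0.05, adjusted p = 0.017), and the differences were -0.05 with E2 (95% interval -0.13 to 0.03) and -0.08 with the combination (95% interval -0.17 to -0.00). The anastrozole call was lost without vehicle a (-0.15, adjusted p = 0.20), vehicle c (-0.18, adjusted p = 0.15), anastrozole a (-0.19, adjusted p = 0.066) or anastrozole b (-0.17, adjusted p = 0.15), with DESeq2 (adjusted p = 0.055) and with limma-voom (adjusted p = 0.15). Anastrozole against E2 gave -0.13 (95% interval -0.22 to -0.04, adjusted p = 0.16), which passed with the GC trend removed (-0.14, adjusted p = 0.017). The combination differed by -0.04 from E2 (95% interval -0.11 to 0.04) and by 0.10 from anastrozole (95% interval 0.00 to 0.19, adjusted p = 0.33). A same-strand transcript of another gene covers 36.4% of its exonic bases in the annotation used here.

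DHCR7, on chromosome 11 (71139239 to 71163914), is the reductase whose product can be cholesterol itself. Its level was 330.7, 291.5 and 311.6 CPM in vehicle a, b and c, 249.3, 258.8 and 273.0 CPM under anastrozole, 281.7, 278.9 and 281.8 CPM with E2, and 268.1, 278.5 and 264.6 CPM with the combination. The vehicle libraries lay above all others but spread widely, and anastrozole and the combination overlapped. DHCR7 fell by 16.4% with anastrozole (-0.26, SE 0.04, adjusted p = 4.5e-06), by 9.77% with E2 (-0.15, SE 0.03, adjusted p = 2.8e-04) and by 13.1% with the combination (-0.20, SE 0.04, adjusted p = 2.1e-06). With the GC trend removed the E2 value was -0.07 (adjusted p = 0.12) and no longer a call, and the other falls were both -0.19 and called. With limma-voom all 3 calls were lost (adjusted p = 0.11, 0.069 and 0.087). Its interaction of 0.20 (SE 0.05, adjusted p = 0.0038) was lost with the GC trend removed (0.07, adjusted p = 0.56) and without vehicle a (0.16, adjusted p = 0.063). The direct differences were -0.10 for anastrozole against E2 (95% interval -0.18 to -0.03, adjusted p = 0.27), -0.05 for the combination against E2 (95% interval -0.12 to 0.01) and 0.05 for the combination against anastrozole (95% interval -0.03 to 0.14). The first was called with the GC trend removed (-0.12, adjusted p = 0.02) or without anastrozole c (-0.14, adjusted p = 0.0099), and the second with the GC trend removed (-0.12, adjusted p = 0.015).

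**Figure D1:**
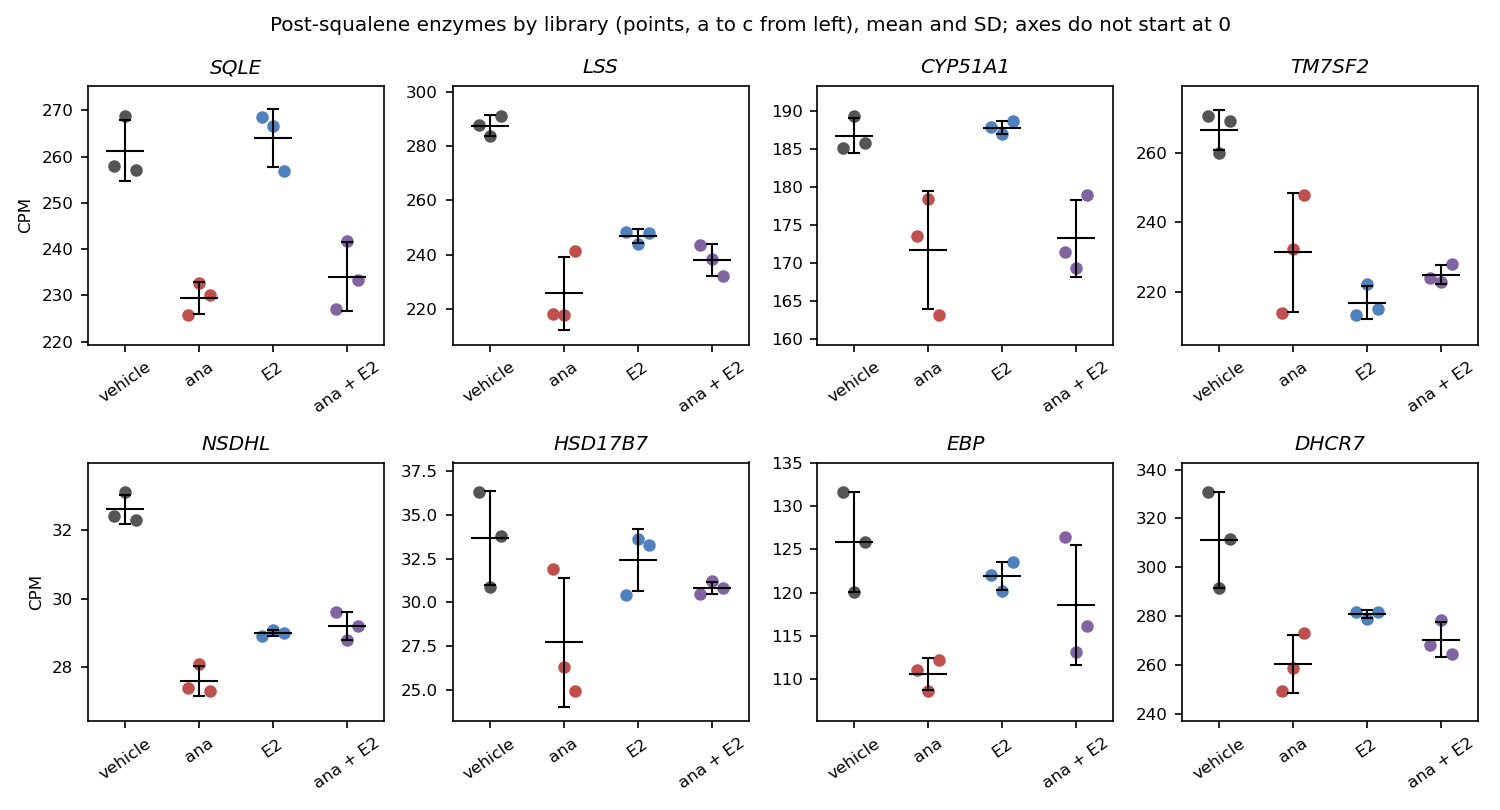
Level of each of the 8 enzymes in CPM (vertical axes, which do not start at 0) in the 4 groups, with 1 point per library and the mean and SD over 3 libraries. In SQLE and CYP51A1 the 6 libraries with anastrozole lie below the 6 without it, and in LSS, TM7SF2, NSDHL and DHCR7 the 3 vehicle libraries lie above the other 9. The share of all genes whose libraries separate in these ways was not computed, so the separations describe single genes only.

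Taking the 8 genes by comparison, 6 of 8 fell with anastrozole (SQLE, LSS, TM7SF2, HSD17B7, EBP and DHCR7) and none rose, where 2.27% of the 21132 genes tested were called lower and 1.40% higher. Well-counted genes are called more often, and among the 9247 genes averaging 4 log2 CPM or more, which include all 8, 4.83% were called lower. The median log2 fold change of the 8 was -0.22, beside 0.00 over all genes tested. With the GC trend removed the count was again 6 of 8, with CYP51A1 in and TM7SF2 out, at a median of -0.21. Of all 21132 genes, 289 were then called lower and 323 higher. The count was 4 with DESeq2 and 1, LSS, with limma-voom, which called 15 genes in all where edgeR called 776.

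With E2, 3 of the 8 fell (LSS, TM7SF2 and DHCR7), beside 5.95% of all genes called lower and 6.06% higher, and 12.4% called lower among those of at least 4 log2 CPM. The median of the 8 was -0.10. Of the 8, LSS and TM7SF2 fell with the GC trend removed, beside 752 of all 21132 genes called lower and 848 higher. LSS, TM7SF2 and DHCR7 have the highest GC content of the 8. Over the 8 genes Pearson's r between exonic GC content and the E2 log2 fold change was -0.87, beside -0.34 for anastrozole and -0.65 for the combination, a description of 8 genes measured in the same libraries. With the combination, 4 of 8 fell (SQLE, LSS, TM7SF2 and DHCR7) at a median of -0.16, beside 2.33% called lower and 2.71% higher of all genes and 4.83% called lower of those of at least 4 log2 CPM. This comparison had a Spearman's rho of -0.03 between fold change and GC content over 10824 genes, against -0.53 for anastrozole and -0.55 for E2. When the trend was removed 5 of 8 fell, with CYP51A1 added, beside 561 of all 21132 genes called lower and 712 higher. All 3 comparisons use the same vehicle libraries, so they are not independent of each other.

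**Figure D2:**
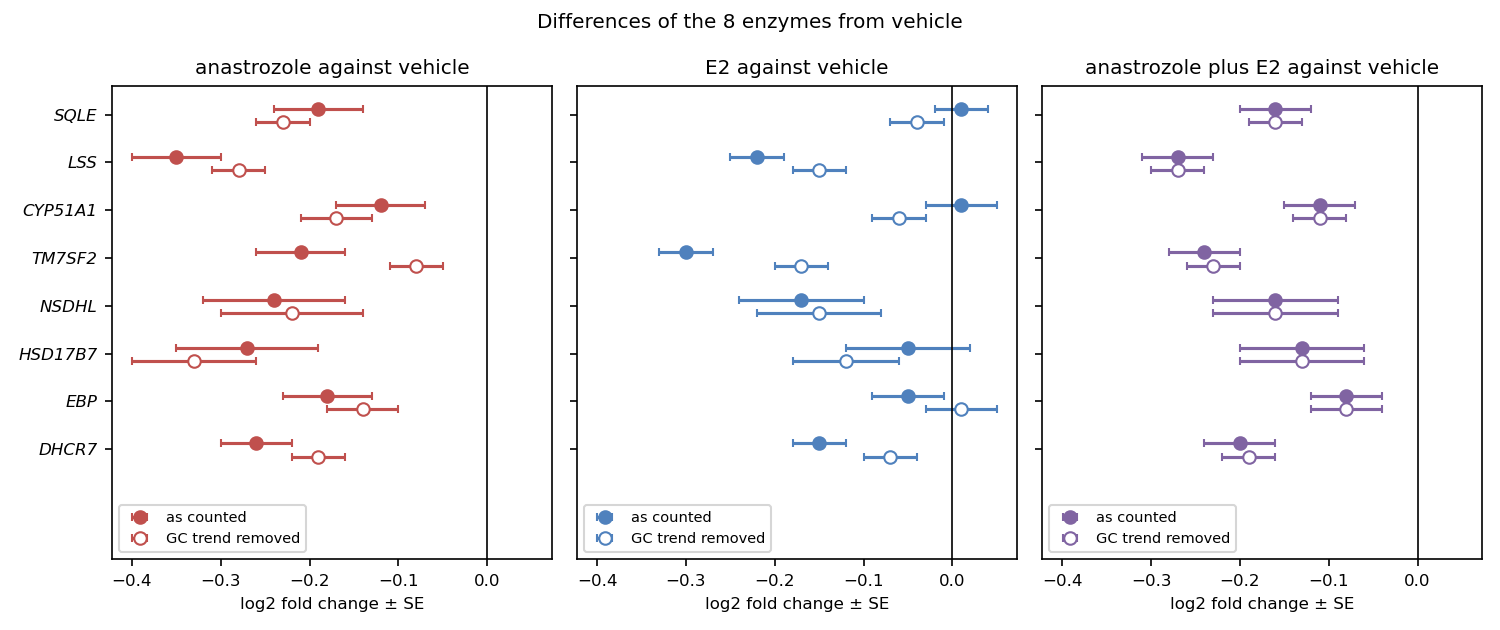
Log2 fold change from vehicle with its SE (horizontal axis) for the 8 enzymes in pathway order, as counted (filled) and with each library's GC trend removed (open). TM7SF2 with anastrozole moves from -0.21 to -0.08 and DHCR7 with E2 from -0.15 to -0.07, while the values for the combination stay in place.

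**Figure D3:**
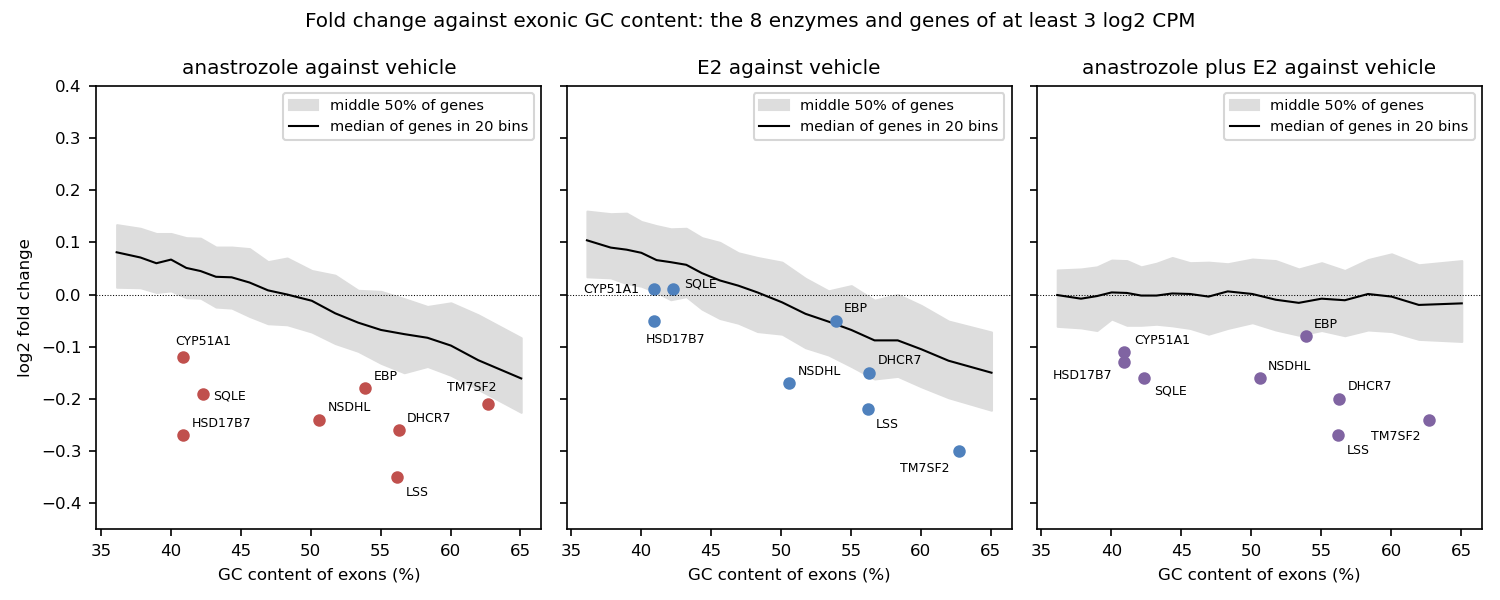
Log2 fold change from vehicle (vertical axis) against the GC content of exons in percent for the 8 enzymes (points), with the median and the middle 50% of genes of at least 3 log2 CPM in 20 bins of GC content. With anastrozole and with E2 the median of all genes declines with GC content, and with the combination it stays near 0 while the 8 points lie between -0.27 and -0.08.

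In the direct comparisons, anastrozole against E2 had 1 of 8 called lower (SQLE), beside 0.705% of all genes called lower and 0.620% higher, and a median of -0.12. With the GC trend removed 5 of 8 were called lower there (SQLE, LSS, CYP51A1, EBP and DHCR7) at the same median, beside 257 of all 21132 genes. The combination against E2 had 2 of 8 called lower (SQLE and CYP51A1), beside 3.51% of genes called lower and 3.23% higher, and a median of -0.05. Removal of the GC trend left 3 of 8 called lower (SQLE, LSS and DHCR7), while the genes called in all went from 1424 to 198. The combination against anastrozole had 0 of 8 called by edgeR, 1 at an unadjusted p under 0.05, and 0 by DESeq2 and by limma-voom, beside 1.18% of genes called lower and 1.71% higher, and the median was 0.06. For the interaction, 3 of 8 were called positive (LSS, TM7SF2 and DHCR7), beside 5.93% of genes called positive and 4.93% negative. All 8 had values of 0 or above, with a median of 0.20 that was 0.12 with the GC trend removed. LSS alone was then called, beside 263 of all 21132 genes called positive. Over all genes the interaction followed GC content with a Spearman's rho of 0.71.

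Per kilobase of annotated exon, the 8 enzymes and MSMO1, which acts among them, stood in this order in vehicle. TM7SF2 had 78.2 ± 1.68 CPM per kilobase (SD, n = 3), followed by MSMO1 (76.4 ± 2.33) and EBP (71.2 ± 3.24), each within the summed SDs of the one before it. SQLE came next with 60.7 ± 1.51 CPM per kilobase, then DHCR7 (45.3 ± 2.85) and CYP51A1 (44.8 ± 0.535), also within their spread of each other, and LSS with 39.7 ± 0.507. NSDHL (16.3 ± 0.211) and HSD17B7 (7.04 ± 0.562), both enzymes of methyl group removal, were the lowest. MSMO1 stood above TM7SF2 in all 3 treated groups, at 71.4 ± 5.81 against 67.9 ± 5.00 with anastrozole, 82.3 ± 2.71 against 63.6 ± 1.38 with E2 and 71.9 ± 2.89 against 66.0 ± 0.763 with the combination, the first pair within the summed SDs. EBP stood above TM7SF2 with E2 (69.0 ± 0.951) and, within the summed SDs, with the combination (67.1 ± 3.91). These orders rest on lengths that join all annotated exons of a gene, and the SDs leave out the uncertainty of those lengths. In CPM alone, DHCR7 (mean 311.2) and LSS (287.6) were the highest of these genes in vehicle. NSDHL (32.6) and HSD17B7 (33.7) were the lowest on that scale too.

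Other enzymes of the stretch behaved less alike. MSMO1, the oxidase that opens methyl group removal, was at 212.1, 225.1 and 216.6 CPM in vehicle and 236.6, 226.1 and 241.2 CPM with E2, and it rose with E2 (0.11, SE 0.04, adjusted p = 0.027). LBR, a nuclear envelope protein with the same reductase activity as TM7SF2, also rose with E2 (0.13, SE 0.04, adjusted p = 0.024), and neither rise was called with the GC trend removed (0.02 for MSMO1 and 0.07 for LBR). SC5D, which puts in the double bond that DHCR7's substrate carries, fell with the combination (-0.21, SE 0.04, adjusted p = 1.4e-06). With anastrozole alone the differences were -0.10 for MSMO1 (95% interval -0.19 to -0.01), -0.04 for SC5D (95% interval -0.13 to 0.05) and 0.01 for LBR (95% interval -0.09 to 0.11), none of them called, and MSMO1 (-0.16) and SC5D (-0.11) were called lower with the GC trend removed. MSMO1 was lower with anastrozole than with E2 (-0.20, SE 0.04, adjusted p = 4.2e-04).

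Among 6 partners and relatives of these enzymes, namely C14orf1 (ERG28, a scaffold of the methyl-removing complex), POR (the electron donor of CYP51A1), PGRMC1, CYB5R3, MARCH6 (a ubiquitin ligase of SQLE protein) and EBPL, 0 were called by edgeR in the 7 comparisons, and 0 by DESeq2 or limma-voom. Their medians lay between -0.05 and 0.03, and at most 2 of the 6 had an unadjusted p under 0.05 in a comparison. With between 0.620% and 6.06% of all genes called in either direction, a count of 0 among 6 genes is not set apart from the rest. POR stood at -0.14 with anastrozole (95% interval -0.25 to -0.03, adjusted p = 0.17) and MARCH6 at 0.07 (95% interval -0.01 to 0.16).

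Upstream of squalene, genes that fell with anastrozole were MVD (-0.39, SE 0.05, adjusted p = 2.5e-12), FDPS (-0.28, SE 0.04, adjusted p = 2.0e-07), MVK (-0.26, SE 0.06, adjusted p = 0.0023) and ACAT2 (-0.17, SE 0.05, adjusted p = 0.047). With E2, IDI1 (0.17, SE 0.03, adjusted p = 8.7e-07) and FDFT1 (0.09, SE 0.03, adjusted p = 0.049) rose and MVD fell (-0.27, SE 0.04, adjusted p = 2.1e-10). With the combination MVD (-0.27) and FDPS (-0.21) fell. All of these calls were kept with the GC trend removed, and HMGCS1 (-0.18, adjusted p = 1.2e-06) and IDI1 (-0.10, adjusted p = 0.038) were then called lower with anastrozole as well.

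**Figure D4:**
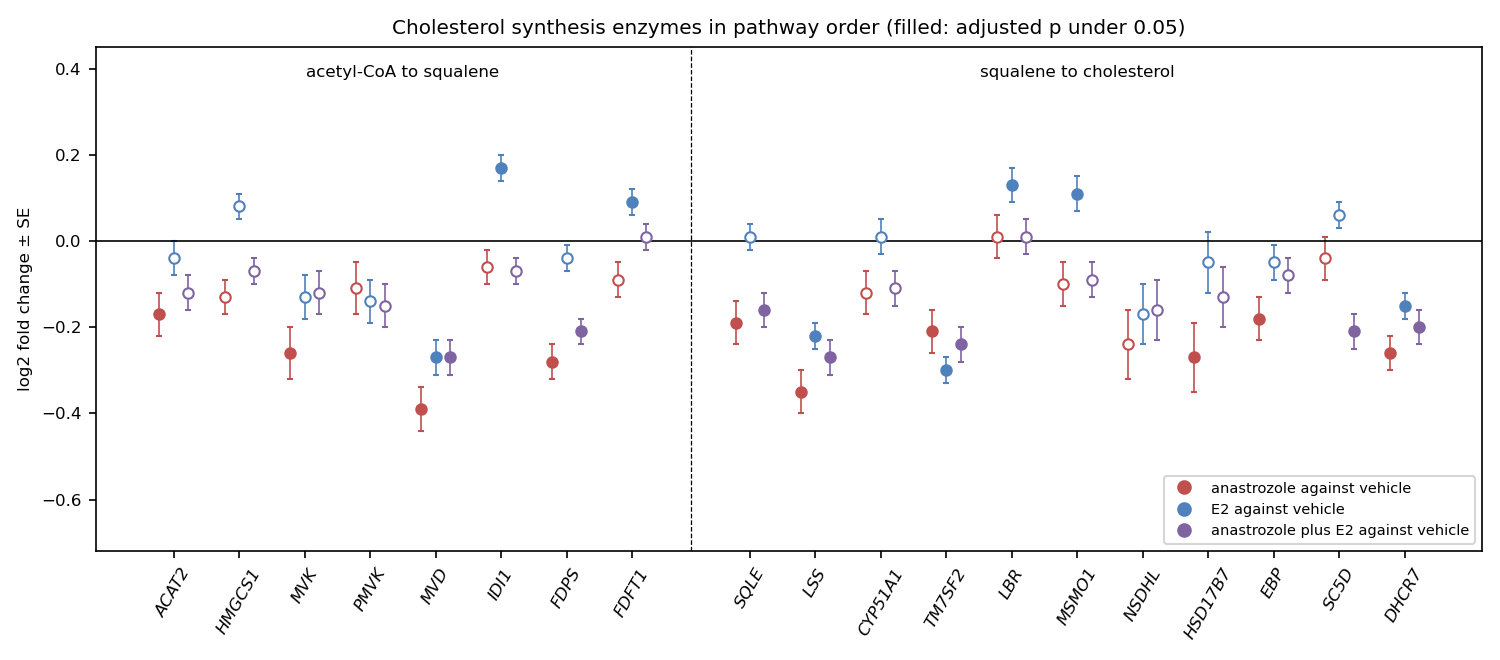
Log2 fold change from vehicle with its SE for 8 enzymes up to squalene and 11 enzymes after it, in pathway order, with filled points for an adjusted p under 0.05. With E2, IDI1 and FDFT1 before squalene and MSMO1 and LBR after it are called higher, and MVD, LSS, TM7SF2 and DHCR7 are called lower.

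Among genes of SREBP control, SREBF1 (-0.17, SE 0.05, adjusted p = 0.021) and SREBF2, which encodes SREBP-2 (-0.15, SE 0.05, adjusted p = 0.037), fell with anastrozole. The SREBF1 and SREBF2 values were -0.06 and -0.08 and not called with the GC trend removed, when INSIG1 was called lower (-0.17, adjusted p = 0.002). With E2, INSIG1 (0.14) and INSIG2 (0.17), which hold SREBPs in the endoplasmic reticulum, rose, and SREBF1 (-0.29) and SREBF2 (-0.10) fell. Of these, SREBF1 alone was called with the GC trend removed (-0.17, adjusted p = 4.7e-05). SREBF1 was called lower with the combination (-0.15, SE 0.04, adjusted p = 0.0058).

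The 8 genes varied together to differing degrees. Over the 12 libraries Pearson's r between the log2 CPM of 2 members ranged from 0.13 (TM7SF2 and HSD17B7) to 0.93 (LSS and DHCR7), with a median of 0.62 over 28 pairs and low values for TM7SF2 with CYP51A1 (0.14) and SQLE (0.24), and with the GC trend removed from 0.11 to 0.90 with a median of 0.70. The mean of their standardised log2 CPM was 1.40, 0.91 and 1.12 in vehicle a, b and c, -0.98, -0.92 and -0.90 with anastrozole, 0.13, 0.22 and 0.21 with E2, and -0.32, -0.47 and -0.41 with the combination. The 4 groups did not overlap on this scale, in the order vehicle, E2, combination, anastrozole, and the order was the same with the GC trend removed. Among 11005 other genes averaging 3 log2 CPM or more, patterns close to this mean were those of IFIT1 (r = 0.96), IFI6 (0.95), PSMD2 (0.94) and RCC1 (0.94). IFIT1, an interferon-induced gene, had mean levels of 59.5 CPM in vehicle, 33.0 with anastrozole, 40.9 with E2 and 37.8 with the combination. With the GC trend removed MVD, an enzyme of the mevalonate arm, came first (0.96), followed by IFIT1 (0.95), PCYT2 (0.94) and IFI6 (0.94). These values describe 12 libraries that share groups and base composition.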

How the data were processed

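Per the study's methods and the labels, the authors aligned reads to hg19 with TopHat2 2.0.14 and Bowtie2 2.2.6 and counted them per gene with htseq-count, whose version, strand setting and annotation are not stated. The labels give polyA RNA as the molecule and also name a library kit for total RNA, and which fraction was sequenced is not settled by them. The deposited counts, whole numbers for 25370 gene symbols, were used as given, and the 5 summary lines at the end stayed out of library sizes (32.7% to 33.5% of all reads were on genes, 58.6% to 59.9% on no feature). After 4238 genes without a read in any of the 12 libraries had been dropped, 21132 were tested. Levels are CPM after TMM normalization, and correlations use log2 CPM. Each pair of groups of 3 libraries was fitted alone with edgeR 4.0.16 (robust quasi-likelihood F test, R 4.3.3), p-values were adjusted over all genes tested by Benjamini-Hochberg, and a gene was called at an adjusted p under 0.05. The interaction was fitted on all 12 libraries. SE was computed from the log2 fold change and F, as the size of the former over the root of the latter.

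Alternatives were DESeq2 1.42.0 size factors, library size alone, filterByExpr, the DESeq2 test, limma-voom (limma 3.58.1), all 12 libraries in the fit, a replicate block by letter, and removal of each library's GC trend (lowess, span 0.5, genes of at least 3 log2 CPM), a step that takes real changes along with it if they follow GC content. Exon lengths, GC content and GRCh37 positions came from GENCODE release 44, in which 21539 genes were found by symbol and 1493 by an older symbol. Genes named outside the 8 were those of the lists, or those ranked by likeness to the 8, and some of them are not reported here. The members and lists were chosen with earlier results of these data known. In a self-test on counts drawn with set fold changes, a change of 0.8-fold came back at a median of 0.79-fold and was called in 64% of genes. The drawn counts held no GC trend that differed between libraries, so this rate does not cover it. With anastrozole, each fall among the 8 except that of LSS (0.785-fold) was smaller than 0.8-fold.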

Additional observations from a re-analysis of the deposited data

Results flagged for a closer look

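The interaction of anastrozole and E2 was positive for LSS (0.30), TM7SF2 (0.26) and DHCR7 (0.20), and negative for SC5D (-0.24). The differences between genes were not tested. With each library's GC trend removed these values were 0.17, 0.02, 0.07 and -0.07, and LSS alone of the 4 kept an adjusted p under 0.05 by edgeR.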

How the results depend on the processing

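Each value of the 8 enzymes was compared with the main fit, and values called in neither fit count as unchanged. Of 496 values in settings other than leaving out a library, 441 were unchanged in being called or not called. A call was lost in 23 and gained in 20, and 12 turned direction. Of 384 values with a library left out, 359 were unchanged, 13 lost a call, 5 gained one and 7 turned direction. DESeq2 gave no adjusted p for NSDHL and HSD17B7 in 3 comparisons, and the HSD17B7 call with anastrozole is counted among those lost. None of the 19 that turned had passed the threshold in either fit. With E2 and the GC trend removed, alone or with the replicate block, these were SQLE (-0.04), CYP51A1 (-0.06) and EBP (0.01), and HSD17B7 was 0.01 without vehicle a (range -0.11 to 0.01 with a library left out). For the combination against E2, TM7SF2 was -0.07 with the GC trend removed and -0.06 with the replicate block added, and NSDHL -0.01 in both. For the combination against anastrozole, DHCR7 was -0.01 in both, CYP51A1 -0.02 without anastrozole c and -0.01 without combination c (range -0.02 to 0.04), and TM7SF2 0.01 without anastrozole c (range -0.10 to 0.01). The interaction of SQLE was -0.01 without vehicle b, E2 c or combination b (range -0.01 to 0.03). The cause was not tested.

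The number of the 8 enzymes called was 1 with limma-voom for anastrozole against vehicle (4 to 6 with a library left out), and 2 with limma-voom for the combination against vehicle (4 to 4). With E2 it was 3 to 3 with a library left out. For anastrozole against E2 it was 5 with the GC trend removed and 4 with the replicate block added (1 to 3 with a library left out). For the combination against E2 it was 1 with limma-voom, 1 with all 12 libraries and 3 with the GC trend removed (1 to 2), for the combination against anastrozole 1 with the GC trend removed, with or without the replicate block (0 to 1), and for the interaction 1 with the GC trend removed and 2 with the replicate block added, LSS and HSD17B7 (2 to 3). With the replicate block alone the 7 counts were 6, 3, 5, 1, 2, 0 and 3.

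The letters share a name across groups, and no source says that they pair libraries. Same-letter libraries of 2 groups were correlated on each gene's deviation from its group mean, over genes averaging at least 3 log2 CPM. These correlations of deviations, not of levels, ran from -0.06 to 0.18 for anastrozole and vehicle and -0.08 to -0.05 for E2 and vehicle. They ran from 0.03 to 0.14 for the combination and vehicle and -0.20 to 0.02 for anastrozole and E2. For the combination they were -0.01 to 0.01 with E2 and 0.01 to 0.14 with anastrozole. Of 12 libraries, 6 had their highest mean correlation with their own letter, out of 3 letters. The block was kept as an alternative. With the replicate block CYP51A1 was called lower with the combination (-0.11, adjusted p = 0.016), as was NR1H3 (-0.22, adjusted p = 0.04). Also called lower there were ACAT2 (-0.12, adjusted p = 0.029), PMVK (-0.15, 0.025), HMGCS1 (-0.07, 0.034), SREBF2 (-0.09, 0.031) and KRT8 (-0.07, 0.0067). CD68 was called higher (0.50, adjusted p = 0.043). The calls with E2 of MSMO1 (adjusted p = 0.061), FDFT1 (0.10), SREBF2 (0.088) and CDH1 (0.11) and that of CXCL12 with anastrozole (0.050) did not pass. Under the replicate block and GC removal together, HSD17B7 had an interaction of 0.32 (adjusted p = 0.04) and CYP51A1 did not pass for anastrozole against E2 (adjusted p = 0.09).

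Genes called numbered 776 for anastrozole against vehicle, 419 with filterByExpr, 238 with DESeq2, 15 with limma-voom, 1229 with all 12 libraries and 191 to 1651 with a library left out. For E2 against vehicle they were 2537, 1433 with DESeq2, 1379 with limma-voom, 1600 with the GC trend removed, 1506 with the replicate block added and 1741 to 2808 with a library left out. For the combination against vehicle they were 1065, 463 with DESeq2, 347 with limma-voom and 682 to 964 with a library left out. For anastrozole against E2 they were 280, 160 with filterByExpr, 107 with DESeq2, 70 with limma-voom, 180 with the replicate block, 495 with the GC trend removed, 422 with both and 107 to 414 with a library left out. For the combination against E2 they were 1424, 647 with DESeq2, 451 with limma-voom, 824 with all 12 libraries, 198 with the GC trend removed, 205 with the replicate block added and 885 to 1176 with a library left out. For the combination against anastrozole they were 612, 295 with filterByExpr, 236 with DESeq2, 90 with limma-voom and 234 to 1706 with a library left out. For the interaction they were 2295, 553 with the GC trend removed, 645 with the replicate block added and 1535 to 3202 with a library left out. In anastrozole against vehicle, 296 genes were called higher and 480 lower, and with the GC trend removed 323 and 289.

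Pairs of libraries of a group differed by 1.27 (combination b and c) to 4.62 (anastrozole a and c) times the variance of counting alone, as chi-square per degree of freedom. Depth limits NSDHL and HSD17B7 most, with at least 278 and 260 reads in a library, and 3 libraries per group limit every test. Changes of RNA content per cell are not seen after normalization.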

Other observations

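Genes known to respond to estrogen gave a measure of the hormone's action in these libraries. With E2, 3 of 8 rose, GREB1 (0.13, SE 0.03), IGFBP4 (0.18, SE 0.03) and MYBL1 (0.39, SE 0.04), at a median of 0.11, beside 6.06% of all genes called higher. With the combination the same 3 symbols were called higher (0.18, 0.28 and 0.27), at a median of 0.12, beside 2.71% of all genes called higher. With anastrozole alone GREB1 (-0.14), PGR (-0.13) and CXCL12 (-0.14) fell, at a median of -0.10, beside 2.27% of all genes called lower, and with the GC trend removed IGFBP4 was called higher there (0.12, adjusted p = 0.0065). The first 2 comparisons share their vehicle libraries with the third.

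Of 5 genes of the LXR sterol sensor and its targets, 0 were called by edgeR in the 7 comparisons, and 0 by DESeq2 or limma-voom, where between 0.620% and 6.06% of all genes were called in either direction. At an unadjusted p under 0.05 there were 2 with anastrozole, 1 with E2 and 1 with the combination, and the medians against vehicle were 0.02, -0.08 and -0.09.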
